A study of Homo sapiens with 4 samples.

Results

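The SOX transcription factor family was followed through 7 members chosen by name, SOX1, SOX2, SOX3, SOX4, SOX9, SOX11 and SOX21, out of 60674 features in the expression tables. All 7 were present, and their detection, level and co-detection were read in the cells of each library. The cells were human pluripotent stem cells (hPSC), labelled as H9, an established embryonic stem cell line. They carried a pooled lentiviral guide library and a second lentivirus encoding mCherry and Cas9. Cells were sorted by their fluorescence and left to recover for 1 week. One culture, titled ESC, was profiled as hPSC, and another, titled Ectoderm, was profiled after induction towards ectoderm; each gave 1 single-cell 3′ library. The viruses and the sorting are described alike for both groups, and the guide pools differed. The protocol text is identical for the samples and mentions the induction in each, and the grouping rests on the sample titles. The induction medium and its length in days were not given in the sources used here.

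SOX proteins bind DNA through a shared HMG box and bend it, and they usually act with a partner factor bound next to them. SOX1, SOX2 and SOX3 form the SOXB1 group of activators that keep neural progenitors undifferentiated, and SOX2 is also, with POU5F1 (OCT4) and NANOG, part of the core network of pluripotent cells. SOX21 is a SOXB2 repressor that opposes SOXB1 factors, SOX9 is a SOXE factor of neural stem cells, glia, crest and cartilage, and SOX4 and SOX11 are SOXC factors known from neuronal precursors and many other embryonic tissues.

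After filtering, the hPSC library held 15326 cells and 83246015 UMIs (unique molecular identifiers, each counting 1 captured RNA molecule), with a median of 4807.5 UMIs per cell. The ectoderm library held 16360 cells and 91249888 UMIs, with a median of 4499. The libraries shared 78 cell barcodes, 0.509% of hPSC and 0.477% of ectoderm cells. In a check of expression against the labelled line, 2 of 2 libraries did not match it, so the identity of the line behind every value is unsettled. With 1 library per group, state, guide pool and culture cannot be told apart, no test between groups was possible, and each interval is a 95% interval that covers counting error only.

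The genes lie on GRCh38, by GENCODE v29, at these places. SOX1 (ENSG00000182968) is at chr13:112067647-112070488 on the plus strand and SOX2 (ENSG00000181449) at chr3:181711924-181714436 on the plus strand. SOX3 (ENSG00000134595) is at chrX:140502985-140505116 on the minus strand. SOX4 (ENSG00000124766) is at chr6:21592768-21598619 and SOX11 (ENSG00000176887) at chr2:5692667-5701385, both on the plus strand. SOX9 (ENSG00000125398) is at chr17:72121020-72126420 on the plus strand, and SOX21 (ENSG00000125285) at chr13:94709622-94712399 on the minus strand. SOX9 has 3 exons in its annotated transcripts, and the other members are single-exon genes. SOX2 lies inside SOX2-OT on the same strand and SOX9 inside SOX9-AS1 on the opposite strand, with 0 exon bases shared in either case. SOX4 overlaps AL512380.2 on the opposite strand and SOX11 overlaps AC108025.2 on its own strand. Whether exon bases are shared in these last pairs was not computed. The strand setting of the authors' counting was not given in the sources used here. Without it, reads from any exon bases shared by SOX4 and AL512380.2 cannot be told apart. For SOX11 and AC108025.2, on 1 strand, the setting would not separate reads from any shared exon bases.

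The SOXB1 genes are shown upstream of their starts because all 3 were at least 2-fold higher in ectoderm, by very different amounts. RefSeq (GRCh38.p14) gave a promoter window of 300 bases for 5 of the 7 members, and SOX9 and SOX11 were not matched. The stretches below run 5′ to 3′ on the strand of the gene and stop before both the RefSeq and the GENCODE start: SOX1 at chr13:112066899-112067148 (plus), SOX2 at chr3:181711675-181711923 (plus) and SOX3 at chrX:140505117-140505319 (minus). Capitals mark matches, on either strand, to the CCAAT box, to TATAA as in a TATA box, to the octamer core ATGCAAA, to the SOX-type motif ACAAAG and to its variant ACAATG.
SOX1: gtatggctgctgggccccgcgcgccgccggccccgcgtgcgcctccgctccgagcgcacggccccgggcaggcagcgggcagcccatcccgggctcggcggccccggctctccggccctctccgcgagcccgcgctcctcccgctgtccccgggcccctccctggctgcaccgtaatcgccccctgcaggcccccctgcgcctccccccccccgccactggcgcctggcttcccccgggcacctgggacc
SOX2: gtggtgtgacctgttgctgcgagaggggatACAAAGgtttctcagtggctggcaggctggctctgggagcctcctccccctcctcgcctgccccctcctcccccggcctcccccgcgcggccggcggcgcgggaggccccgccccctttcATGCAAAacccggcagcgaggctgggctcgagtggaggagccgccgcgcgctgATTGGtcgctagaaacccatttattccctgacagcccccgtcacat
SOX3: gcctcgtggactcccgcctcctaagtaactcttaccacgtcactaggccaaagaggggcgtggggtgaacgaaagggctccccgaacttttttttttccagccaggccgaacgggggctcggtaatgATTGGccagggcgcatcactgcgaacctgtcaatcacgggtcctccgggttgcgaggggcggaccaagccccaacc
In the SOX2 stretch the capitals are ACAAAG at position -220, ATGCAAA at -100 and CCAAT, read on the opposite strand as ATTGG, at -47, counted from the RefSeq start. SOX3 held CCAAT at -123, and a TATAA at -27 lies in its window outside the stretch shown. The SOX1 window held 0 of the 5 motifs, had 80% G+C and carried 37 CpG dinucleotides, against medians of 58.7% and 14 over 35116 promoter windows of the same length. The SOX4 window, which lies past its GENCODE start and inside its GENCODE gene, held CCAAT 4 times, and the SOX21 window held CCAAT and TATAA once each. Over all windows, 34.6% held CCAAT, 20.4% TATAA, 4.46% ATGCAAA, 16.1% ACAAAG and 10.8% ACAATG. The matches describe letters in these windows, and no binding was measured.

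Of the 7 members, 6 had a higher level in the ectoderm library than in the hPSC library and SOX4 had a lower one. Counted where a gene had at least 20 CPM (UMIs scaled to a common library total) in 1 library or both and differed at least 2-fold, 5 of 7 members were higher and 0 lower. Among all 6250 genes at that level, 203 (3.25%) were higher and 252 (4.03%) lower. The log2 ratio of ectoderm over hPSC had a median of 2.83 over the members and -0.03 over the 6250 genes.

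Among the SOXB1 genes, SOX1, which marks neural plate and neural progenitors, gave 53 UMIs in hPSC against 3988 in ectoderm. That is 0.637 CPM (0.477 to 0.833) against 43.7 CPM (42.4 to 45.1), or 68.6-fold (log2 ratio 6.10, 5.71 to 6.52). SOX1 was thus close to absent in the hPSC library, and none of its 53 UMIs there lay in a barcode shared with the ectoderm library. SOX3, an X-linked SOXB1 gene of the early neural plate, had 519 and 4049 UMIs, or 6.23 and 44.4 CPM (log2 ratio 2.83, 2.70 to 2.97). SOX2, needed in pluripotent cells and in neural progenitors alike, gave 19677 UMIs in hPSC against 47066 in ectoderm. Its hPSC level was 236 CPM (233 to 240) and its ectoderm level 516 CPM (511 to 520), a 2.18-fold difference (log2 ratio 1.13, 1.10 to 1.15). The SOXB1 gene that was already well measured in hPSC thus had the smallest ratio of the 3, and the one nearest to 0 had the largest.

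SOX21, the SOXB2 repressor, gave 603 UMIs in hPSC against 5621 in ectoderm, or 7.24 against 61.6 CPM (8.50-fold, log2 ratio 3.09, 2.97 to 3.21). SOX9, the SOXE factor, had 1054 and 10869 UMIs, or 12.7 against 119 CPM (9.41-fold, log2 ratio 3.23, 3.14 to 3.33). Activator and repressor of the SOXB class were therefore both higher in the ectoderm library, together with SOX9.

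The SOXC genes went in opposite directions. SOX11 gave 25088 UMIs in hPSC against 52795 in ectoderm, or 301 against 579 CPM (1.92-fold, log2 ratio 0.94, 0.92 to 0.96), just under 2-fold. SOX4 had 77453 and 56305 UMIs, or 930 CPM (924 to 937) in the former and 617 CPM (612 to 622) in the latter (0.663-fold, log2 ratio -0.59, -0.61 to -0.58). SOX4 was the only member of the 7 with a lower level in ectoderm, and the difference did not reach 2-fold.

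**Figure D1:**
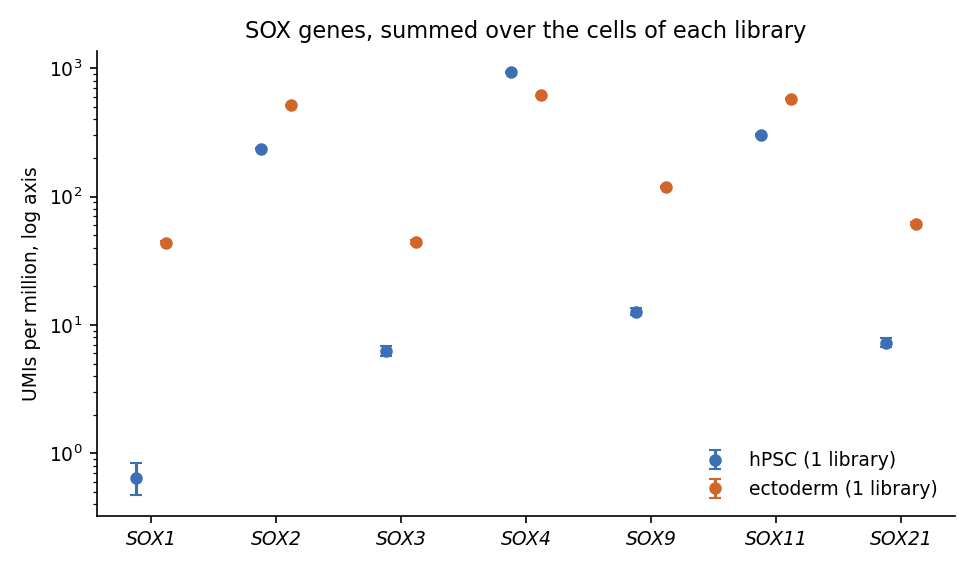
Level of each SOX gene in CPM, on a log axis, summed over the cells of the hPSC library (blue) and the ectoderm library (orange); bars are exact 95% Poisson intervals and 1 library stands behind each point. The ectoderm point lies above the hPSC point for 6 genes, with the widest gap for SOX1 (0.637 to 43.7), and below it for SOX4.

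Restricting both libraries to cells with a single non-targeting guide took out the cells with targeting guides and left 212 hPSC and 159 ectoderm cells. In the cells left, SOX1 gave 0 UMIs in hPSC against 60 in ectoderm. With a floor of 3 counts put in place of the 0 it was 24.5-fold higher. That log2 ratio is 4.62, with an interval from 4.27 upwards and no upper end. The log2 ratio was 1.14 for SOX2, 3.07 for SOX3, 3.11 for SOX9, 0.87 for SOX11, 2.72 for SOX21 and -0.70 for SOX4. Each member kept its direction in these cells.

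Transcription factors known to act with SOX proteins were read beside the members. Of 12 such genes, 9 reached 5 CPM in a library, and 5 of them were at least 2-fold higher in ectoderm and 2 lower. Among the 10771 genes at 5 CPM, 427 (3.96%) were higher and 522 (4.85%) lower. OTX2, a forebrain homeobox factor, went from 4.71 CPM in hPSC to 106 CPM in ectoderm (log2 ratio 4.49), and ZIC2, a zinc finger factor of the neural plate, from 210 to 672 CPM (1.67). The pluripotency partners of SOX2 were lower: POU5F1 went from 1155 CPM in hPSC to 485 CPM in ectoderm (-1.25), and NANOG from 178 to 11.6 CPM (-3.94). PAX6, a partner of SOX2 in eye and brain, gave 18 UMIs in hPSC against 109 in ectoderm, below 5 CPM in both. SOX2 was thus higher in a library where POU5F1 was still at 485 CPM and NANOG was low.

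Markers of the labelled cell types were read for the same cells. Those at 5 CPM in a library count as measured, and among all genes at that level 3.96% were higher and 4.85% lower. Of 10 pluripotency markers, all measured, 1 was higher and 4 were lower in ectoderm, with summed levels of 3448 CPM in hPSC and 2811 CPM in ectoderm. Of 15 neural plate and progenitor markers, 10 were measured, 8 of them higher and 0 lower. The sum over all 15 was 430 CPM in hPSC and 1688 CPM in ectoderm. LHX5, a forebrain homeobox gene, was at 3.03 and 57.6 CPM (log2 ratio 4.25), whereas NES, a progenitor filament gene, was at 69.2 and 68.3 CPM (-0.02) and CDH2 at 37.2 and 27.5 CPM (-0.43). PAX6 was at 1.19 CPM and LHX2 at 3 UMIs in ectoderm, so some defining markers of neural progenitors were near 0. The ectoderm library therefore carried anterior neural genes beside remaining pluripotency genes.

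SOX9 is also a neural crest gene, and markers of crest were read beside it. Of 11 crest markers, 4 were measured, 0 higher and 3 lower in ectoderm, where 3.96% and 4.85% of all genes at 5 CPM were. The sum over all 11 was 50.8 CPM in hPSC and 17.4 CPM in ectoderm. EDNRB went from 18.7 to 0.230 CPM (log2 ratio -6.35) and ETS1 from 9.60 to 0.701 CPM (-3.77). SOX10, which defines crest, gave 68 UMIs in hPSC against 79 in ectoderm (0.817 and 0.866 CPM). TFAP2B had 0 and 2 UMIs, PAX3 1 and 2, and SNAI2 15 and 8. FOXD3, an early crest factor, was at 11.4 and 5.63 CPM and NGFR at 8.31 and 4.56 CPM. PAX7, below 5 CPM in both libraries, went the other way, from 71 to 414 UMIs (0.853 and 4.54 CPM, log2 ratio 2.41). With mitochondrial and ribosomal protein genes left out of the total, 1 marker was counted higher and 2 lower, and the median log2 ratio went from -2.40 to -0.98. The part of crest-like cells in the SOX9 level was not tested.

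Detection in single cells followed the levels. To take out differences in depth, every cell was thinned to 2000 UMIs, which left out 131 hPSC cells (0.855%) and 0 ectoderm cells. A member was then detected, with at least 1 UMI, in a higher share of ectoderm cells for 6 of 7 members, and SOX4 in a lower share.

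SOX1 was detected in 14 of 15195 hPSC cells, 0.0921% (exact Clopper-Pearson interval 0.0504% to 0.155%), and in 7.71% of 16360 ectoderm cells (7.30% to 8.13%). SOX3 was detected in 1.25% of hPSC cells and 8.34% of ectoderm cells, and SOX21 in 1.33% and 11.4%. SOX9 was detected in 2.38% and 20.1%. At this depth these 4 genes were found in a minority of the cells of both libraries.

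SOX2 was detected in 35.9% of hPSC cells (35.1% to 36.6%), compared with 62.5% in ectoderm (61.8% to 63.3%). SOX11 was detected in 43.8% and 66.0%, and SOX4 in 81.9% and 67.3%. SOX2 and SOX11 were thus found in more ectoderm than hPSC cells, and SOX4 in fewer.

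Without thinning the shares were 0.326% and 18.9% for SOX1, 3.25% and 19.9% for SOX3, and 3.68% and 27.0% for SOX21, in hPSC and ectoderm in that order. They were 6.45% and 41.2% for SOX9 and 65.0% and 86.1% for SOX2. SOX11 stood at 73.3% and 87.7%, and SOX4 at 95.8% and 88.0%. The order of the libraries was the same for each gene with and without thinning. Free RNA in droplets can give a UMI in a cell that does not express the gene, and no cell type that should lack these genes was identified in the ectoderm library. For scale, SOX10 was detected in 0.138% of thinned hPSC cells and 0.134% of ectoderm cells. The SOX1 share in hPSC was no higher than that of SOX10.

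**Figure D2:**
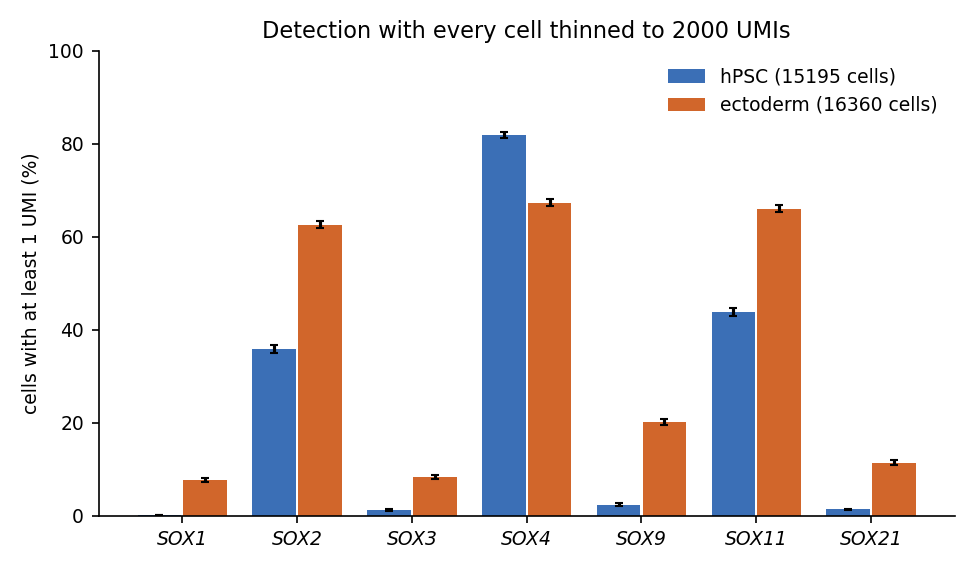
Share of cells with at least 1 UMI of each SOX gene after thinning every cell to 2000 UMIs, in hPSC (blue) and ectoderm (orange); bars start at 0 and error bars are exact 95% Clopper-Pearson intervals over cells of 1 library. SOX1, SOX3, SOX9 and SOX21 go from at most 2.38% to between 7.71% and 20.1%, and SOX4 goes the other way.

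The spread of UMIs over cells was read next. The variance divided by the mean, which is 1 for Poisson counts, ran from 0.998 for SOX3 to 1.17 for SOX4 in thinned hPSC cells, and from 1.05 for SOX21 to 1.21 for SOX11 in ectoderm. For a gene with few UMIs per cell, such as SOX1 at a mean of 0.0839 in thinned ectoderm cells, a ratio near 1 says little about how its RNA is spread. Without thinning, where depth differs between cells, SOX4 reached 2.77 in hPSC and 2.84 in ectoderm. Cells with at least 3 UMIs of SOX4 made up 28.3% of hPSC and 13.4% of ectoderm cells. For SOX2 such cells made up 1.95% and 8.64%, and for SOX11 2.90% and 12.8%. The differences in level were therefore also seen at the upper end of the cells.

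More members were found together in an ectoderm cell than in an hPSC cell. After thinning, at least 2 members were held by 56.5% of hPSC cells (55.7% to 57.3%), compared with 80.9% in ectoderm (80.3% to 81.5%). At least 3 members were found in 15.7% and 47.1% of cells, and at least 4 in 0.849% and 15.2%. None of the 7 was found in 6.34% and 2.75% of cells, and all 7 in 0 and 3 cells. Without thinning, all 7 were found in 0 hPSC cells and 225 ectoderm cells (1.38%).

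Whether 2 members were found in the same cells more often than their shares alone give was read for the 21 pairs in 1 random draw of 2000 UMIs per cell. In ectoderm the ratio of observed to expected cells was over 1 for 20 of 21 pairs, with a median of 1.04. Its interval lay above 1 for 2 pairs and below 1 for 0. Among all pairs of the 5780 genes at 20 CPM there with at least 5 expected cells, 50.8% had a ratio over 1, 1.41% an interval above 1 and 1.08% one below 1. Those genes differ from the members in how often they are detected, which sets the width of an interval.

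The ectoderm pairs above 1 were SOX1 with SOX9 (1.22, 1.08 to 1.36), found in 308 cells against 253 expected, and SOX1 with SOX3 (1.23, 1.02 to 1.46). SOX1 with SOX2 stood at 1.07 (0.994 to 1.14) and SOX2 with SOX3 at 0.995 (0.929 to 1.06). Averaged over all possible draws, an alternative chosen after seeing the data, 21 of 21 ratios were over 1, and 4 intervals lay above 1. SOX1 with SOX9 was among them (1.25, 1.12 to 1.40), while SOX1 with SOX3 was not (1.19, 0.992 to 1.42). The others were SOX3 with SOX9 (1.13, 1.00 to 1.26), SOX1 with SOX11 (1.08, 1.01 to 1.15) and SOX9 with SOX11 (1.04, 1.00 to 1.09), whose intervals held 1 in the single draw. Without thinning, SOX1 with SOX3 stood at 1.41 (1.32 to 1.51). SOX1 with SOX9 was thus above 1 in both readings of thinned cells. Each other pair with an interval above 1 in either reading had one that held 1 in the other. The intervals of the remaining pairs held 1 in both.

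In hPSC, 15 pairs had at least 5 expected cells in the single draw, and 12 of them had a ratio over 1, with a median of 1.10 and a range of 0.977 to 1.39. Among all pairs of the 5762 genes at 20 CPM there, 51% had a ratio over 1, 1.38% an interval above 1 and 1.04% one below 1. Of the members' pairs, SOX2 with SOX11 lay above 1 (1.05, 1.01 to 1.09), and 0 lay below. SOX2 with SOX21 stood at 1.22, with an interval that began at 0.975 and held 1, and averaged over all draws at 1.25 (1.02 to 1.52). The highest ratio, for SOX1 with SOX2, rested on 7 cells and had an interval of 0.561 to 2.87. All cells of a library share its depth, free RNA and doublets, whose part in these ratios was not tested.

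**Figure D3:**
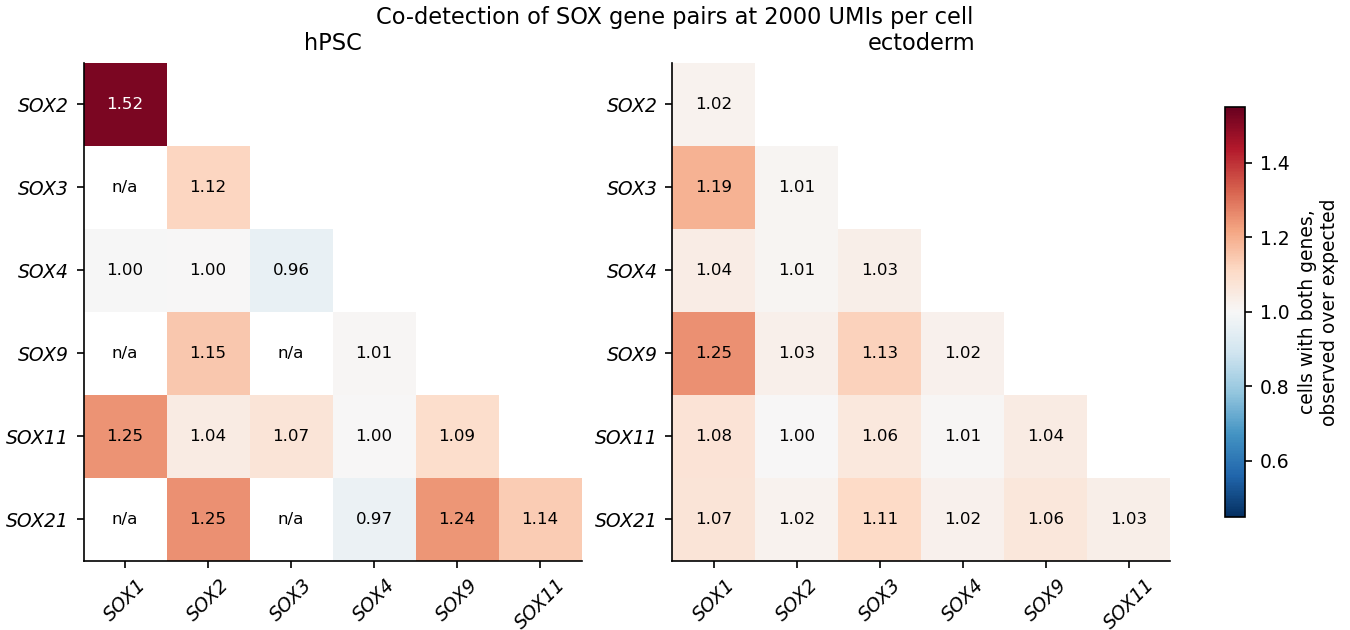
Observed over expected number of cells with both genes for each pair of SOX genes, at 2000 UMIs per cell and averaged over all draws, in hPSC (left) and ectoderm (right); n/a marks pairs with under 5 expected cells. Ectoderm ratios lie between 1.00 and 1.25, highest for SOX1 with SOX9, and the hPSC ratio of 1.52 rests on few cells.

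Cells were also ordered by their thinned SOX2 count. In hPSC, SOX11 was detected in 42.7% of 9747 cells with 0 SOX2 UMIs, 44.7% of 4072 cells with 1, 48.4% of 1079 cells with 2 and 54.5% of 297 cells with 3 or more. SOX21 was detected in 1.17%, 1.38%, 1.76% and 4.38% (2.35% to 7.37%) of the same cells. Both shares were highest where SOX2 was highest, and those of the other members were not. SOX4 was detected in 82.3% of hPSC cells with 0 SOX2 UMIs and 77.4% with 3 or more, and SOX9 in 2.25% and 1.68%. SOX3 was detected in 1.13% and 1.68%, with 2.04% at 2 SOX2 UMIs, and SOX1 in 0.0718% and 0%. In ectoderm, SOX9 was detected in 19.4%, 19.6%, 20.96% and 23.0% of 6129, 5851, 2967 and 1413 cells. SOX4 was detected in 66.3%, 68.0%, 67.2% and 69.1% of them, and SOX11 in 65.6%, 65.5%, 67.3% and 67.5%. The shares of SOX9, SOX4 and SOX11 were thus all highest where SOX2 was highest. SOX21 was detected in 11.3%, 10.8%, 12.6% and 11.6%. SOX1 was detected in 6.87%, 8.26%, 8.46% and 7.50%, and SOX3 in 8.40%, 8.34%, 8.46% and 7.78%, so neither climbed steadily with SOX2.

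The members were then set against 10 genes of the stem cell, anterior neural, neurogenic and cycling states. The share of thinned cells with a member was compared between cells with and without each gene, and counted where the intervals of the shares did not overlap. Of 70 such comparisons, 17 were apart in ectoderm (14 higher, 3 lower) and 10 in hPSC (10 higher, 0 lower). Over all genes at 20 CPM in the library set against the same 10 genes, 3.37% of comparisons were apart in ectoderm (2.03% upwards, 1.34% downwards) and 3.32% in hPSC (2.03% and 1.29%). Those genes differ from the members in how often they are detected.

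In ectoderm, SOX1 had 6 of its 10 comparisons apart, the most of the 7 members. It was detected in 8.85% of 8848 cells with SIX3, an anterior neural plate gene, against 6.36% of 7512 cells without it (ratio 1.39). It was detected in 9.55% of cells with OTX2 against 7.28% without, and in 9.35% of cells with LHX5 against 7.52% without. With FABP7, a radial glia gene, the shares were 11.1% and 7.62%, and with the proliferation gene MKI67 they were 8.89% and 7.43%. SOX1 was less often detected in cells with POU5F1, at 6.78% of 9926 cells against 9.14% of 6434 cells. Cells with SOX1 thus more often held anterior neural genes and less often POU5F1.

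SOX3 had the same sides for 3 genes: it was detected in 9.14% of cells with SIX3 against 7.39% without, in 10.2% against 8.12% for LHX5, and in 7.73% against 9.28% for POU5F1. SOX9 was detected in 21.6% of cells with SIX3 against 18.3% without, and SOX21 in 13.3% of cells with LHX5 against 11.2% without. SOX11 was detected in 70.1% of cells with OTX2 against 65.1% without, and it was also apart upwards for SIX3, HES1 and MKI67 and downwards for POU5F1. SOX4 was apart for MKI67 alone, at 69.7% against 66.8%. For SOX2, 0 of 10 comparisons were apart, and its share was 62.3% in cells with POU5F1 and 62.9% in cells without. NANOG, DLL1, a Notch ligand gene, and OLIG3, a bHLH gene, were apart for no member in ectoderm.

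**Figure D4:**
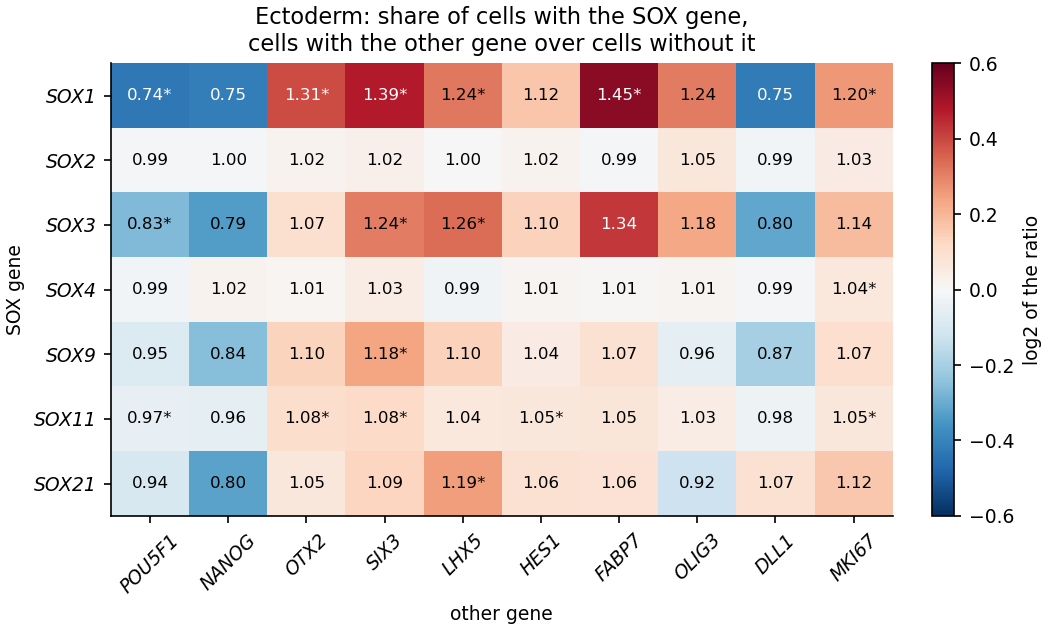
Share of thinned ectoderm cells with each SOX gene (rows) among cells with the other gene (columns) divided by the share among cells without it; colour is the log2 of the ratio and an asterisk marks exact 95% intervals of the shares that do not overlap. The SOX1 row holds the most asterisks, with 1.39 for SIX3 and 0.74 for POU5F1, and the SOX2 row holds none.

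In hPSC the pattern lay with SOX2. It was detected in 40.8% of 1241 cells with SIX3 against 35.4% without, in 44.9% of 156 cells with OTX2 against 35.8%, and in 49.5% of 99 cells with LHX5 against 35.8%. With OLIG3 it was detected in 56.6% of 53 cells (42.3% to 70.2%) against 35.8%, and with MKI67 in 38.8% against 35.1%. The few hPSC cells with anterior neural RNA thus more often held SOX2. SOX11 was detected in 47.9% of cells with SIX3 against 43.5% without, in 45.8% with NANOG against 43.0%, and in 60.4% with OLIG3 against 43.8%. SOX4 was detected in 83.2% of cells with NANOG against 81.4% without, and in 84.1% with MKI67 against 81.4%. SOX1, SOX3, SOX9 and SOX21 had 0 comparisons apart in hPSC, where each was detected in at most 2.38% of cells.

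The genes whose counts followed a member most closely over thinned cells had weak correlations throughout, as sparse counts give. Pearson's r was taken on the natural log of the count plus 1, and the median size of r over all genes at 20 CPM was between 0.00558 and 0.00743 for the members. The highest value was that of SOX11 with HNRNPH1, a splicing factor gene, at 0.119 over 16360 ectoderm cells, and the same gene was first for SOX11 in hPSC at 0.0647 over 15195 cells. SOX4 was followed in ectoderm by PTTG1 (0.0728), UBE2C (0.0705) and ARL6IP1 (0.0631), and UBE2C was also second for SOX4 in hPSC (0.0515). PTTG1 and UBE2C are genes of mitosis. SOX1 was followed in ectoderm by FZD5, a WNT receptor gene (0.0614), SIX3 (0.0578) and TPM1 (0.0560). SOX2 was followed in hPSC by the gap junction gene GJA1 (0.0841), AL591742.2 (0.0678) and MIR302CHG, the host of stem cell miRNAs (0.0638), and in ectoderm by TOP2A (0.0401). These values are descriptions over cells that share a library.

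SOX2 was itself a target of the ectoderm guide pool, by 4 guides, and no guide to a member was found in the deposited hPSC amplicon reads. Of 3686 ectoderm cells with exactly 1 guide at 20 or more amplicon UMIs, 54 held a SOX2 guide and 159 a non-targeting guide. Their median depth was 4562 and 5378 UMIs per cell. A 3′ count does not read the edited bases, and a cut need not lower the RNA, so the SOX2 level does not check the editing.

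SOX2 itself gave 137 UMIs under SOX2 guides and 576 under non-targeting guides. Its level was 437 CPM (367 to 517) under the former and 565 CPM (520 to 613) under the latter (log2 ratio -0.37, -0.65 to -0.10). SOX1 gave 6 UMIs and 60 UMIs. Its level was 19.2 CPM (7.03 to 41.7) under SOX2 guides and 58.9 CPM (44.9 to 75.8) under non-targeting guides (log2 ratio -1.62, -3.12 to -0.41). SOX1 and SOX2 were the members whose interval lay below 0. At a size of at least 2-fold, 1 of 7 members was lower and 0 higher, where 185 of 5781 genes (3.2%) were lower and 79 (1.37%) higher in the same comparison.

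SOX3, with 7 UMIs under SOX2 guides, stood at 22.3 CPM there and 40.2 CPM under non-targeting guides (-0.85, -2.25 to 0.32). SOX21, with 11 UMIs, stood at 35.1 and 57.9 CPM (-0.72, -1.80 to 0.22). Both intervals hold 0. SOX4 stood at 565 against 605 CPM (-0.10, -0.35 to 0.15), SOX9 at 121 against 118 CPM (0.04, -0.52 to 0.58) and SOX11 at 619 against 563 CPM (0.14, -0.11 to 0.37). The counts of SOX4, SOX9 and SOX11 bound any difference to under 2-fold, as far as counting error goes, and those of SOX3 and SOX21 do not.

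Against the 3632 other cells with 1 guide, of which the non-targeting cells are part, the log2 ratio was -1.30 (-2.75 to -0.17) for SOX1, -0.25 (-0.51 to -0.01) for SOX2 and -0.88 (-1.88 to -0.03) for SOX21. With guides assigned at 10 amplicon UMIs, the interval of SOX21 held 0 (-0.69, -1.60 to 0.09). Guide by guide, SOX1 had 1 UMI in 20 cells with guide SOX2-1, 4 UMIs in 30 cells with SOX2-3, 1 UMI in 3 cells with SOX2-4 and 0 UMIs in the 1 cell with SOX2-2. The log2 ratio of SOX1 was -2.81 (-8.13 to -0.27) with SOX2-1 and -1.39 (-3.31 to 0.04) with SOX2-3, so the SOX1 difference rests on few UMIs of 1 culture.

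**Figure D5:**
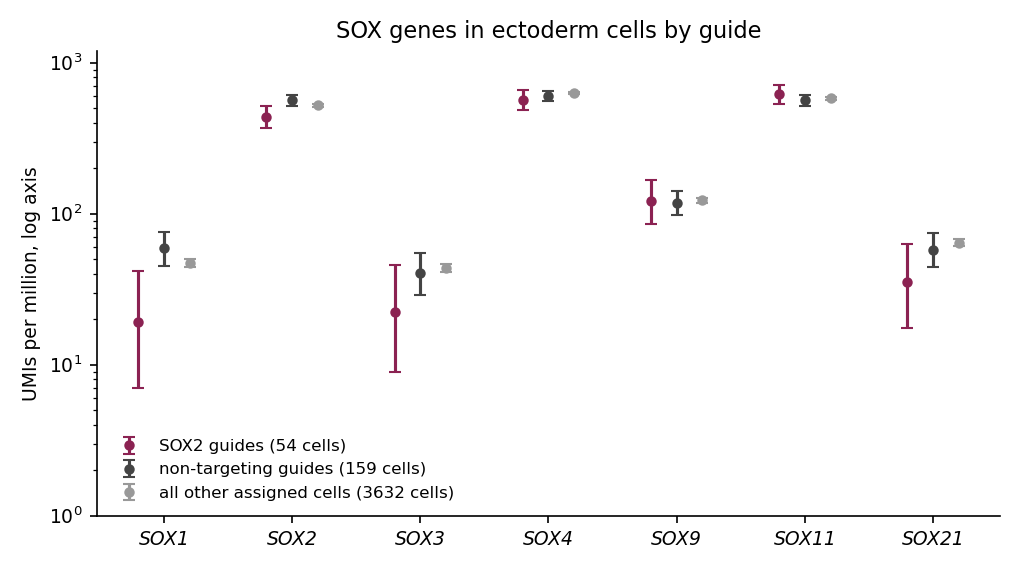
Level of each SOX gene in CPM, on a log axis, in ectoderm cells with SOX2 guides (red), non-targeting guides (dark grey) and all other singly assigned cells (light grey, which include the non-targeting cells); bars are exact 95% Poisson intervals. The SOX1 point of the SOX2-guide cells, at 19.2, lies below both others, and the points of SOX4, SOX9 and SOX11 lie together.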

How the data were processed

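Single-cell 3′ RNA and guide amplicons of 1 hPSC and 1 ectoderm culture were used. The deposited matrices give unnormalized UMI counts for each gene in each cell. The submitters' processing notes name STARsolo, STAR and GRCh38. Tool versions, annotation release and strandedness were not given in the sources used here. Deposited amplicon tables list 1 read per line with mismatch counts by the authors, and the hPSC table, with 1048575 reads, may be part of a longer one.

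Cells were kept with 1000 or more UMIs, 500 or more genes and no more than 20% mitochondrial UMIs, and doublets were not removed. UMIs were summed per library and scaled to CPM. Exact Poisson, conditional binomial and Clopper-Pearson intervals (95%) cover counting error only. Cells were thinned to 2000 UMIs. Without replicates no test was run and no p-value is given. A cell was assigned a guide where exactly 1 had 20 or more amplicon UMIs. The interval of the ratio, and thinning with co-detection of independent genes, were tested on simulated data. The other steps were not. Python 3.11.15, NumPy 2.4.6, SciPy 1.17.1 and pandas 2.3.3 were used.

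The members, gene lists and rules were chosen with earlier results of these data known. Named genes were drawn from the members, the 3 genes most correlated with each member in each library, and the 10 genes set against the members. The 2 highest and 2 lowest measured genes of each list were also eligible. Some of the correlated genes and of the list genes are not printed. SOX10, SOX17, PAX6, LHX2, TFAP2B, PAX3, PAX7, SNAI2, TP63, KRT5, SOX1-OT and SOX9-AS1 were named after their values were seen. Protein sequences were not analysed here. Alternatives were other scalings, cell filters, thinning depths, guide thresholds and control cells.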

Additional observations from a re-analysis of the deposited data

How the results depend on the processing

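The counts of members at least 2-fold higher (5) and lower (0) in ectoderm were the same in all 7 alternatives of scaling, cell filter and cell choice, and 6 members were detected in a higher share of ectoderm cells in all 7 alternatives of thinning, threshold and cell choice. The log2 ratio ranged over the former from 4.62 (non-targeting cells, with the floor of 3 counts in hPSC) to 6.14 for SOX1. The range was 1.07 to 1.16 for SOX2, 2.83 to 3.07 for SOX3 and -0.70 to -0.56 for SOX4. It was 3.11 to 3.27 for SOX9, 0.87 to 0.98 for SOX11 and 2.72 to 3.13 for SOX21. The share of all genes called was 13.7% higher and 17.1% lower with no filter on low counts. The share of cells with at least 2 members depends on depth: in hPSC and ectoderm it was 28.3% and 47.9% at 1000 UMIs, 83.9% and 97.6% at 4000 UMIs, and 87.5% and 96.0% without thinning. In hPSC it was 57.7% with another random draw and 57.4% without the 5% of cells with the most UMIs. Averaged over all draws, an alternative chosen after seeing the data, SOX2 was detected in 36.7% of hPSC cells and SOX21 in 1.47%. Pairs with a co-detection ratio over 1 numbered 8 (1000 UMIs) to 17 (not thinned) in hPSC, against 12 with the main draw. In ectoderm they numbered 19 (4000 UMIs) to 21 (not thinned), against 20. Without thinning, depth differs between cells, and in hPSC the number of pairs with enough expected cells also changes with depth. The share over all genes was not computed for these alternatives. With guide SOX2-4 alone, 3 cells, the log2 ratio of SOX1 was 0.27, from 1 UMI; guide SOX2-2, with 1 cell, gave no ratio for SOX1, SOX3 or SOX21. At 10 amplicon UMIs the ratios in 57 cells with SOX2 guides were -1.73 for SOX1 and -0.34 for SOX2. No paired analysis was possible because each group is 1 library.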

Other observations

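Among 12 further SOX genes, 4 reached 5 CPM in a library, 0 of them at least 2-fold higher in ectoderm and 1 lower, with a median log2 ratio of 0.15. Among all genes at 5 CPM, 3.96% were higher and 4.85% lower. SOX8, a SOXE gene like SOX9, went from 6.55 CPM in hPSC to 2.65 CPM in ectoderm (-1.30, -1.53 to -1.08), and in cells with non-targeting guides 0 of the 12 genes were counted lower. SOX12, the third SOXC gene, was at 16.9 and 19.5 CPM (0.21), SOX13 at 46.3 and 49.5 CPM (0.10) and SOX15 at 23.7 and 37.5 CPM (0.66). SOX17, an endoderm gene, had 0 UMIs in both libraries, where the floor of 3 counts is 0.0360 CPM in hPSC and 0.0329 CPM in ectoderm, and the upper 95% limits are 0.0443 and 0.0404 CPM.

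Of 6 noncoding RNAs that overlap or neighbour SOX genes, 3 reached 5 CPM, 2 of them at least 2-fold higher in ectoderm and 0 lower. Among all genes at 5 CPM the shares were 3.96% and 4.85%. SOX2-OT, which contains SOX2, went from 2.97 CPM in hPSC to 6.25 CPM in ectoderm (log2 ratio 1.07). SOX21-AS1 was at 2.88 and 7.65 CPM (1.41), and CASC15, a neighbour of SOX4, at 39.0 and 27.3 CPM (-0.51). Below 5 CPM, SOX1-OT gave 19 UMIs in hPSC against 291 in ectoderm, and SOX9-AS1 had 49 and 234. Each of these 5 RNAs lay on the same side as the SOX gene it is named for or next to.

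Of 9 surface ectoderm markers, 5 were measured, 0 of them at least 2-fold higher and 2 lower, with a median log2 ratio of 0.31. For this list and those below, the shares among all genes at 5 CPM were 3.96% higher and 4.85% lower. KRT18 went from 732 CPM in hPSC to 157 CPM in ectoderm (-2.22) and KRT8 from 420 to 112 CPM (-1.90). TFAP2C went up from 46.1 to 86.4 CPM (0.91), EPCAM from 168 to 285 CPM (0.76) and CDH1 from 172 to 213 CPM (0.31), each under 2-fold. TP63 and KRT5 had 0 UMIs in both. Of 13 proneural and early neuron genes, 4 were measured, 1 higher (DLL1, 9.97 and 20.1 CPM, 1.01, under 2-fold in 2 of 7 alternatives) and 1 lower (STMN2, 42.9 and 17.6 CPM, -1.28). Of 8 mesoderm and endoderm markers 1 was measured, KDR, at 29.7 and 3.17 CPM (-3.23). Markers of endothelium and blood reached 5 CPM for 0 of 6 genes.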
